A study of Mus musculus with 6 samples.

Results

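Renal glucose handling was followed through 9 genes of the proximal tubule in 6 kidney arrays of mice with fibrosis driven by TGF-β1. The genes were 4 glucose transporters (Slc5a2, Slc5a1, Slc2a2 and Slc2a1), 4 enzymes of gluconeogenesis (Pck1, G6pc, Fbp1 and Pcx) and the fructose kinase Khk. They were chosen by symbol, and an exon row of the array was taken where its annotation gave exactly 1 symbol equal to one of the 9. That rule found all 9 genes on 109 of the 212097 rows with 1 symbol, among 241576 rows in all, and the gene values stand among those of 20416 genes.

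The CBAxB6-TGFbeta group held 3 kidneys on a mixed CBA and B6 background (replicates 4, 5 and 6), and the B6-TGFbeta group held 3 kidneys on the B6 background (replicates 1, 2 and 3). Every kidney carries TGFbeta in its label and is described as having induced renal fibrosis, so no array shows either background without TGF-β1. The labels add the word KO to CBAxB6-TGFbeta and WT to B6-TGFbeta but name no deleted gene, and a genotype behind those words cannot be told apart from the background. The labels describe littermate cohorts of matched age and sex, while the sources used here give neither the age and sex themselves nor the origin of TGF-β1 or any pooling. Differences below are CBAxB6-TGFbeta minus B6-TGFbeta on the log2 scale. The p-values concern only these 3 kidneys per group. Those of limma use a moderated variance, which joins the spread of a gene between these kidneys with that of all genes.

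Cells of the proximal tubule recover filtered glucose from the urine through sodium-coupled carriers at the brush border and hand it to the blood through facilitative carriers of the opposite membrane. The same cells make glucose from lactate, glutamine and other precursors, and the kidney shares this capacity with the liver. Early segments (S1 and S2) carry the high-capacity sodium-glucose carrier, and the late segment (S3) carries the high-affinity one. Fructose, taken up or made from sorbitol, is also metabolised there.

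The endocytic receptor gene Lrp2 (megalin), a defining marker of the proximal tubule, had a mean over all 6 arrays at the 99.6th percentile of genes. It stood at 11.04, 11.42 and 11.57 in CBAxB6-TGFbeta replicates 4, 5 and 6, against 12.22, 12.04 and 12.02 in B6-TGFbeta replicates 1, 2 and 3, and was itself lower in CBAxB6-TGFbeta (-0.75, SE 0.14, adjusted p 0.0144 in limma). The median over all exon rows of an array was 7.27 to 7.34. Markers of liver or fat were high in 2 arrays. The albumin gene Alb, a defining hepatocyte gene, stood at 10.94 in CBAxB6-TGFbeta replicate 6 and at 9.45 in B6-TGFbeta replicate 2, against 6.00 to 6.29 in the other arrays. The brown fat gene Ucp1 stood at 10.93 in B6-TGFbeta replicate 2 and at 6.22 or lower elsewhere. The fat hormone gene Adipoq stood at 8.57 in B6-TGFbeta replicate 2, at 6.58 in CBAxB6-TGFbeta replicate 4 and at 4.88 to 5.00 elsewhere. CBAxB6-TGFbeta replicate 6 and B6-TGFbeta replicate 2 were therefore also left out together, a choice made after seeing the data, since liver and fat express several of the 9 genes. CBAxB6-TGFbeta replicate 4 stayed in that fit.

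All 9 genes had a lower mean in CBAxB6-TGFbeta kidneys, and 6 of them passed the test as lower: Pck1, Slc5a2, Pcx, Khk, G6pc and Fbp1, by 2.02-fold to 3.97-fold on the linear scale. None of the 9 passed as higher, and none was higher at an unadjusted p under 0.05 in limma. Over all 20416 genes, 7.65% passed at an adjusted p under 0.05, 4.57% as lower and 3.08% as higher, and 46.1% had a difference below 0. The median difference of the 9 genes was -1.45, against 0.018 over all genes. Slc5a1, Slc2a2 and Slc2a1 did not pass. The groups did not overlap in 7 of the 9 genes, all of them lower in CBAxB6-TGFbeta, where 26.8% of all genes were separated, 13.4% in that direction. In bulk kidney, fewer proximal tubule cells and less RNA per cell cannot be told apart.

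**Figure D1:**
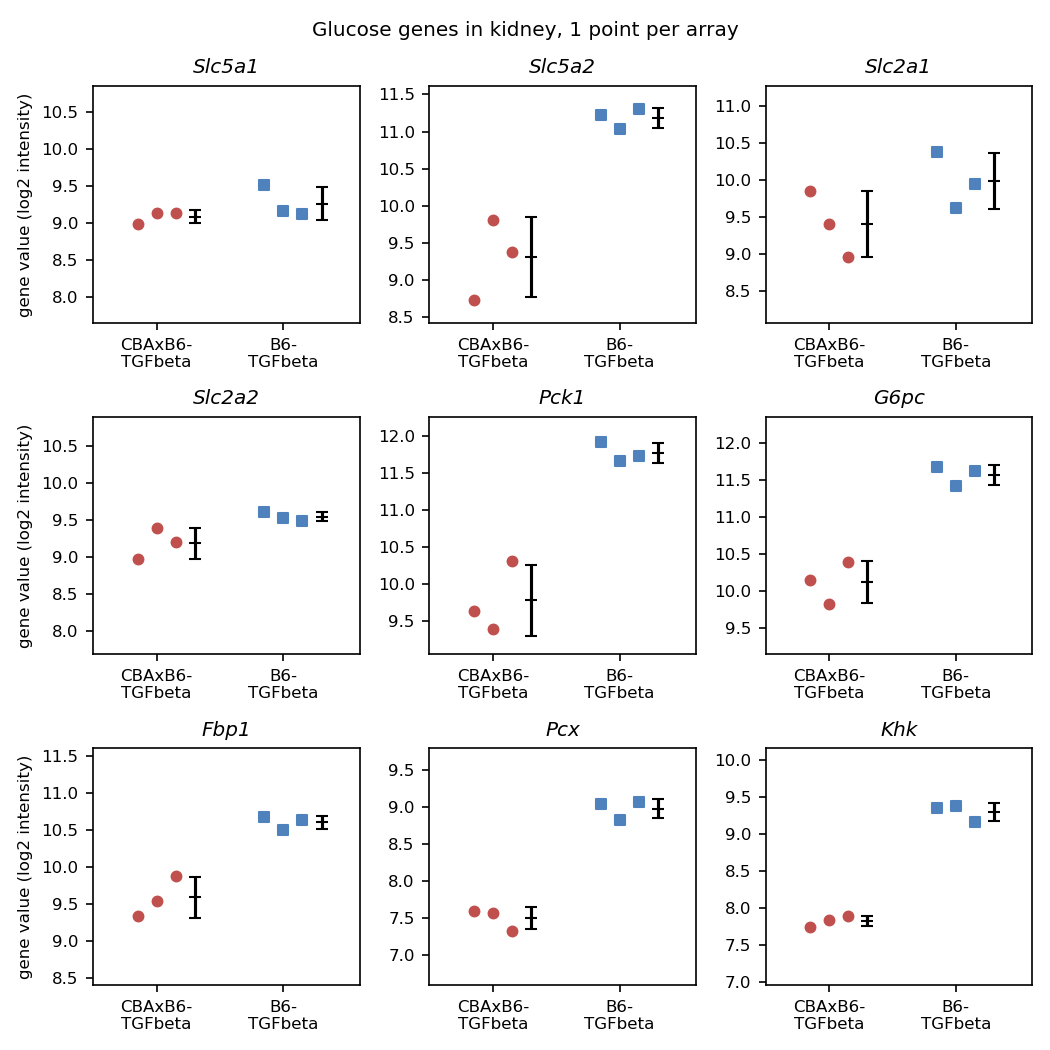
Gene values (log2 intensity, each axis spanning 3.2 units) of the 9 genes, 1 point per array, with CBAxB6-TGFbeta left of B6-TGFbeta and mean ± SD (n = 3) beside the points. The groups stand apart in every panel except Slc5a1 and Slc2a1, and in Slc2a2 by a narrow gap.

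With 1 array left out in turn and gene values recomputed from the remaining 5, 1 to 5 of the 6 genes passed (5 without CBAxB6-TGFbeta replicate 6, and 1 without B6-TGFbeta replicate 1 or 3). Khk passed in all 6 such fits, Pcx in 4, Slc5a2 and G6pc in 2 each, and Pck1 and Fbp1 in 1 each. The number of genes passing as lower over the whole array was 36 to 335 in these fits, or 0.176% to 1.64%, against 934 with all arrays. With the gene values of all 6 arrays kept and 1 array dropped from the test, an alternative added after seeing the data, all 6 genes passed in every fit. In these fits 310 to 861 genes, or 1.52% to 4.22% of all, passed as lower. Without moderation of the variances only Khk passed, where 40 genes, or 0.196% of all, passed as lower. All 6 passed with the 2 arrays with high liver or fat markers left out, where 544 genes, or 2.66% of all, passed as lower.

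Pck1 encodes the cytosolic phosphoenolpyruvate carboxykinase, which commits oxaloacetate to gluconeogenesis. Its gene value was 9.64, 9.39 and 10.31 in CBAxB6-TGFbeta replicates 4, 5 and 6, against 11.92, 11.67 and 11.73 in B6-TGFbeta replicates 1, 2 and 3. The groups were separated by more than 1 log2 unit, and the spread was wider in CBAxB6-TGFbeta, where replicate 6 was the highest. The difference was -1.99 (SE 0.21, adjusted p 0.000953 in limma), or 3.97-fold lower. It ranked 7th by size among the 934 genes that passed as lower. Replicate 6 of CBAxB6-TGFbeta is the array with the highest Alb, and without it the difference was -2.25 (adjusted p 0.0180). Without that array and B6-TGFbeta replicate 2 it was -2.30 (adjusted p 0.00125). All 10 exon rows of Pck1 were lower and separated the groups, by -2.19 to -1.49, and the brightest row gave the smallest difference.

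G6pc encodes the catalytic subunit of glucose-6-phosphatase, which releases free glucose as the last step. Its value was 10.16, 9.83 and 10.40 in CBAxB6-TGFbeta replicates 4, 5 and 6, against 11.68, 11.42 and 11.63 in B6-TGFbeta replicates 1, 2 and 3. As for Pck1, replicate 5 was the lowest and replicate 6 the highest of the CBAxB6-TGFbeta kidneys. The difference was -1.45 (SE 0.15, adjusted p 0.000891 in limma), or 2.73-fold lower. All 6 rows were lower, by -1.74 to -1.04. The brightest row, at -1.04, did not pass when it alone stood for the gene (adjusted p 0.0698).

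Fbp1 encodes fructose-1,6-bisphosphatase, which bypasses the phosphofructokinase step on the way to glucose. Its value was 9.34, 9.55 and 9.88 in CBAxB6-TGFbeta replicates 4, 5 and 6, against 10.68, 10.50 and 10.63 in B6-TGFbeta replicates 1, 2 and 3. The groups were separated, with the gap between their nearest arrays wider than the spread within either group. The difference of -1.01 (SE 0.14, adjusted p 0.00357 in limma) was the smallest of the 6 that passed, a 2.02-fold lower level. Of its 8 rows 7 were lower, by -1.51 to -0.73. The eighth stood at 2.48 to 2.86 in all 6 arrays, near the bottom of the intensity scale, with a difference of 0.10. On the brightest row alone the difference was -0.73 and did not pass (adjusted p 0.0668).

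Pcx encodes pyruvate carboxylase, the mitochondrial enzyme that turns pyruvate into oxaloacetate and so feeds Pck1. Its value was 7.59, 7.57 and 7.32 in CBAxB6-TGFbeta replicates 4, 5 and 6, against 9.04, 8.82 and 9.07 in B6-TGFbeta replicates 1, 2 and 3. Both groups were tight, and here CBAxB6-TGFbeta replicate 6 was the lowest kidney and not the highest. The difference was -1.48 (SE 0.12, adjusted p 0.00028 in limma), or 2.79-fold lower. All 22 of its rows were lower, by -2.07 to -0.63, and 21 separated the groups. Pyruvate carboxylase is also abundant in fat, and without B6-TGFbeta replicate 2 the difference was -1.53 (adjusted p 0.0393).

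Khk encodes ketohexokinase, which phosphorylates fructose at the entry of its breakdown. Its value was 7.74, 7.84 and 7.88 in CBAxB6-TGFbeta replicates 4, 5 and 6, against 9.35, 9.37 and 9.16 in B6-TGFbeta replicates 1, 2 and 3. With an SD of 0.072 in CBAxB6-TGFbeta and 0.12 in B6-TGFbeta (n = 3 each), it had the smallest spread in CBAxB6-TGFbeta among the 9 genes. The difference was -1.47 (SE 0.10, adjusted p 0.000139 in limma), or 2.77-fold lower. It passed under all 22 alternatives, between -1.54 and -1.12. All 9 rows were lower and separated the groups. They ranged from -2.30, on a row at 4.53 to 4.66 in CBAxB6-TGFbeta and 6.43 to 7.48 in B6-TGFbeta, to -0.42, on a row at 7.96 to 8.03 in CBAxB6-TGFbeta and 8.24 to 8.55 in B6-TGFbeta. The gene makes isoforms that differ in 1 of a pair of alternative exons, and the rows were not assigned to exons here.

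Of the 4 transporters only Slc5a2 passed. It encodes SGLT2, the high-capacity sodium-glucose carrier of the early proximal tubule. Its value was 8.73, 9.80 and 9.38 in CBAxB6-TGFbeta replicates 4, 5 and 6, against 11.22, 11.03 and 11.30 in B6-TGFbeta replicates 1, 2 and 3. The CBAxB6-TGFbeta kidneys spread over about 1 log2 unit, with replicate 4 lowest, and the B6-TGFbeta kidneys lay close together. The difference was -1.88 (SE 0.23, adjusted p 0.00199 in limma), or 3.68-fold lower. All 15 rows were lower and separated the groups. The 3 rows with the highest IDs gave -0.91, -1.41 and -0.93, against -2.21 to -1.67 in the other 12, a split noticed after the values were seen.

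Slc5a1 encodes SGLT1, the high-affinity sodium-glucose carrier of the late proximal tubule. Its value was 8.98, 9.13 and 9.13 in CBAxB6-TGFbeta replicates 4, 5 and 6, against 9.51, 9.15 and 9.11 in B6-TGFbeta replicates 1, 2 and 3. The groups overlapped, and only B6-TGFbeta replicate 1 lay above 9.2. The difference of -0.18 (SE 0.12, adjusted p 0.474 in limma) had a 95% confidence interval from -0.46 to 0.10. Its 18 rows were divided: 12 were lower and 6 higher, from -0.70 to 0.42. The 8 rows with the lowest IDs were all lower, by -0.70 to -0.23, and 5 of the 7 with the highest IDs were higher, a split noticed after the values were seen. The groups were separated in 3 rows that were lower and in 1 that was higher. No row passed in limma, and 2 were lower at an unadjusted p under 0.05.

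Slc2a2 encodes GLUT2, which lets glucose leave the early proximal tubule cell towards the blood. Its value was 8.98, 9.40 and 9.20 in CBAxB6-TGFbeta replicates 4, 5 and 6, against 9.61, 9.53 and 9.50 in B6-TGFbeta replicates 1, 2 and 3. Every CBAxB6-TGFbeta kidney lay below every B6-TGFbeta kidney, but replicate 5 lay close to them. The difference of -0.35 (SE 0.12) did not pass (adjusted p 0.121 in limma), with a 95% confidence interval from -0.62 to -0.082 before adjustment. All 10 rows were lower, within the narrow range of -0.58 to -0.21.

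Slc2a1 encodes GLUT1, the facilitative carrier found in many cell types, endothelium among them. Its value was 9.85, 9.41 and 8.96 in CBAxB6-TGFbeta replicates 4, 5 and 6, against 10.38, 9.63 and 9.94 in B6-TGFbeta replicates 1, 2 and 3. The groups overlapped, and both spread over more than 0.7 log2 units. The difference of -0.58 (SE 0.24, adjusted p 0.201 in limma) had a 95% confidence interval from -1.11 to -0.037. All 11 rows were lower, from -1.17 to -0.027, and none passed in limma or reached an unadjusted p under 0.05. The arrays did not move evenly over the rows. On the fourth row, in ID order, CBAxB6-TGFbeta stood at 10.05, 9.24 and 8.02 and B6-TGFbeta at 10.93, 9.32 and 10.56, whereas on the eleventh row all 6 arrays lay between 9.87 and 10.16. CBAxB6-TGFbeta replicate 6 was the lowest array in 8 of the 11 rows, and B6-TGFbeta replicate 1 the highest in 10.

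**Figure D2:**
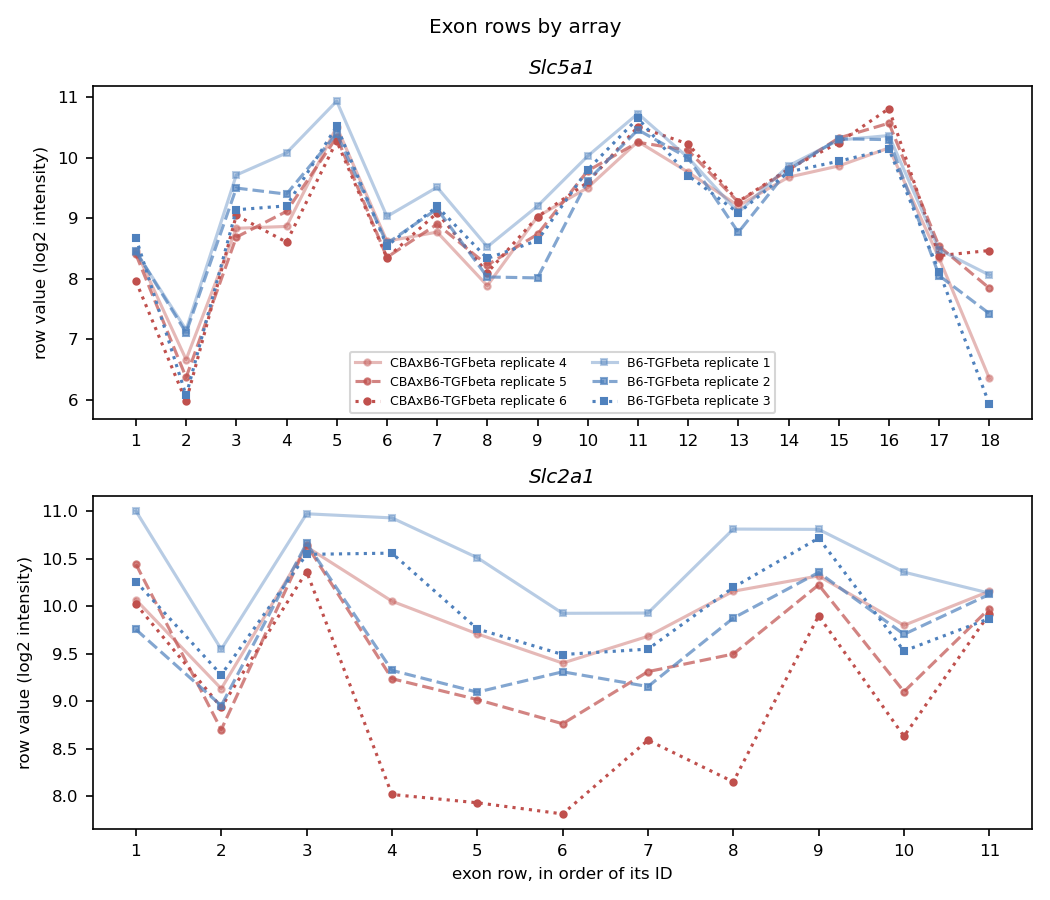
Row values (log2 intensity) of Slc5a1 (18 rows) and Slc2a1 (11 rows) in ID order, 1 line per array, CBAxB6-TGFbeta as circles and B6-TGFbeta as squares. The lines of Slc5a1 cross each other, while those of Slc2a1 fan out between rows 4 and 8 and meet at row 11, with CBAxB6-TGFbeta replicate 6 lowest.

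Over the 109 rows of the 9 genes, 102 were lower in CBAxB6-TGFbeta, against 50% of all rows. Tested row by row over the whole array, 35 of the 109 passed as lower and none as higher, where 0.535% of all rows passed, 0.299% as lower and 0.236% as higher. The groups were separated in 79 rows that were lower and in 1, of Slc5a1, that was higher, against 20.4% of all rows, 10.5% lower and 9.91% higher. At an unadjusted p under 0.05, 72 were lower and none was higher, against 7.64% and 6.48% of all rows. Rows of 1 gene share its RNA and are not replicates. The 35 comprised 12 rows of Pcx, 7 of Pck1, 6 of Khk, 5 of Slc5a2, 3 of G6pc and 2 of Fbp1. Without any one of the arrays 0 to 8 rows passed, and with the 2 arrays with high liver or fat markers left out none did. The share of all rows passing after adjustment was not taken for these fits. A loss particular to the 9 genes therefore cannot be read from these counts. With the 2 arrays left out, 68 rows were lower at an unadjusted p under 0.05 in limma, against 6.32% of all rows. Without any one of the arrays 66 to 72 were, against 5.43% to 8.15% of all rows.

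**Figure D3:**
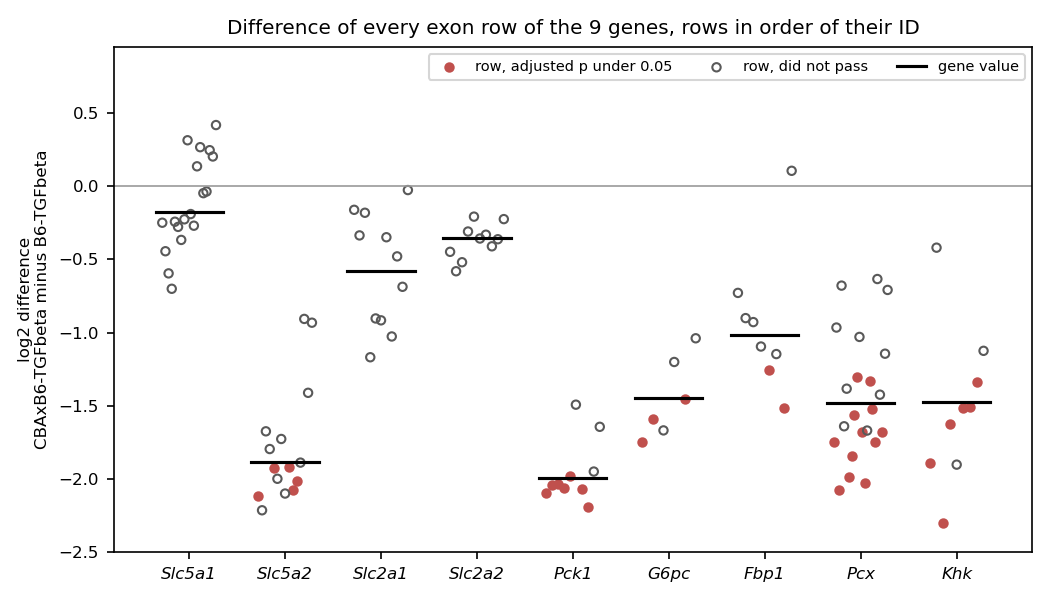
Log2 difference (CBAxB6-TGFbeta minus B6-TGFbeta) of each of the 109 rows, grouped by gene and ordered by ID, filled where the adjusted p was under 0.05, with the gene value as a bar. Rows of Pck1, Slc5a2, Pcx, G6pc and Khk all lie below 0, 1 dim row of Fbp1 lies above it, and those of Slc5a1 straddle it.

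The differences of related genes were compared directly, as the per-array gap between 2 gene values, in 6 pairs. With 3 arrays a group, the test cannot give a two-sided exact permutation p below 0.1, so no pair could pass at 0.05. The gap of Slc5a2 over Slc5a1 was -0.25 to 0.67 in CBAxB6-TGFbeta and 1.71 to 2.19 in B6-TGFbeta, a difference of -1.70 (exact p 0.1, 0.15 adjusted over the 6 pairs). Pck1 against Pck2, its mitochondrial counterpart, gave -2.06, with gaps of 2.19 to 3.13 in CBAxB6-TGFbeta and 4.53 to 4.68 in B6-TGFbeta. G6pc against the widely expressed G6pc3 gave -1.17, and Fbp1 against the muscle form Fbp2 gave -1.12. In these 4 pairs the groups stood apart, and all 4 reached the smallest exact p, 0.1. Slc2a2 against Slc2a1 gave 0.22 (exact p 0.7) and Khk against Pcx 0.012 (exact p 0.9), with overlapping groups in both.

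Promoter windows, 250 bases before to 50 after a start site in RefSeq (GRCm38.p6), were searched because 6 of the genes were lower together. By symbol, 8 of the 9 genes matched, Pcx with 2 windows, and Slc5a2 did not. On both strands the search used GTTAAT, part of the site of the transcription factor HNF1 of proximal tubule and liver, the HNF4 site CAAAGTCCA, the cAMP response element TGACGTCA and its part ACGTCA, which overlap. It also used the CCAAT box, the TATA box as TATAAA and the SP1 box as GGGCGG. The full HNF1 site was planned too but was not searched. Pck1, G6pc and Khk, 3 genes that passed as lower, are shown because theirs were the windows among the 9 with GTTAAT, which 7.1% of all 32851 windows hold. Capitals mark GTTAAT or its reverse complement, and ACGTCA.
Pck1, chr2:173152823-173153122, plus strand: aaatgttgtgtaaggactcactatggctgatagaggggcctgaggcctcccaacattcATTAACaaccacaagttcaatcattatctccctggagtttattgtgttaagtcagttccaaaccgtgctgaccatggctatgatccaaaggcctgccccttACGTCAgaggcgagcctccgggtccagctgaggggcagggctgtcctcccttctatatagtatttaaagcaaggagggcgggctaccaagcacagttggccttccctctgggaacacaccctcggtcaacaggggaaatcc
G6pc, chr11:101367466-101367765, plus strand: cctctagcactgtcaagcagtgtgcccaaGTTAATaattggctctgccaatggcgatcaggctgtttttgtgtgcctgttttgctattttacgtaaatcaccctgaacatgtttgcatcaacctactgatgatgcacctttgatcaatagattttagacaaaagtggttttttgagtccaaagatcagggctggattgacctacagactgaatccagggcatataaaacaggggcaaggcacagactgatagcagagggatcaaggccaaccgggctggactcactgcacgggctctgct
Khk, chr5:30921309-30921608, plus strand: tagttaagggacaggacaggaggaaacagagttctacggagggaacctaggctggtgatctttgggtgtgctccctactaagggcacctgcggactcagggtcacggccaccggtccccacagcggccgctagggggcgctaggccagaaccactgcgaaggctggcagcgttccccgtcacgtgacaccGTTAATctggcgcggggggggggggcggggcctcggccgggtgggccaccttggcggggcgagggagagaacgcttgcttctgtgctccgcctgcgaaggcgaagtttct

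The GTTAAT match began at position -192 in Pck1, -221 in G6pc and -60 in Khk, with the start site as position 1. Only the Pck1 window also held ACGTCA, at -91, which 7.51% of all windows hold. The windows of Fbp1 and Pcx, which also passed as lower, held neither. The HNF4 site was in none of the 9 windows and in 0.475% of all, and TGACGTCA in none of the 9 and in 1.79% of all. CCAAT lay in 6 of the 9 and in 37.4% of all windows, GGGCGG in 5 and in 35.7%, and TATAAA in 2 and in 13.6%. A match describes these letters and is no measure of binding.

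The wider pathway was read from 12 lists of related genes, with 152 of 165 entries measured, to be read against the 4.57% of all genes that passed as lower. That share was 0.176% to 1.64% with 1 array left out before the gene summary. With the 2 arrays with high liver or fat markers left out it was 2.66%. Lower counts in every list with more than 1 lower gene fell by more than 1.5 times in at least 1 fit with an array left out. Of 15 other gluconeogenic enzymes and carriers, 4 passed as lower and none as higher, leaving 11, and the median was -0.33. At an unadjusted p under 0.05 in limma, 10 of the 15 were lower and 0 higher. With the 2 arrays named above left out 1 passed as lower, and with 1 array left out in turn 0 to 2 did. The 4 were Slc37a4 (-1.03, SE 0.13), which brings glucose-6-phosphate to the phosphatase, the malate dehydrogenases Mdh1 (-0.78, SE 0.14) and Mdh2 (-0.47, SE 0.12), and the transaminase Got1 (-0.58, SE 0.13). The isoenzymes set against the members did not pass: Pck2 had a difference of 0.070, Fbp2 of 0.11 and G6pc3 of -0.28. Of 13 glycolytic enzymes that run the opposing steps, the hexokinase Hk1 (-0.61, SE 0.15) and the phosphofructokinase Pfkm (-0.53, SE 0.11) were lower, leaving 11, and the median was 0.020. Neither passed with the 2 arrays left out, nor with 1 array left out before the gene summary. No glycolytic gene passed as higher with all arrays. At an unadjusted p under 0.05 in limma, 3 were higher and 2 lower. The share of all genes at that unadjusted threshold was not taken, here or for the other lists. Such counts therefore have no background to be read against. The difference furthest from 0 in this list was that of the hexokinase Hk2, at 7.28, 7.31 and 6.46 in CBAxB6-TGFbeta replicates 4, 5 and 6, against 5.85, 6.68 and 5.92 in B6-TGFbeta replicates 1, 2 and 3. The groups overlapped only through CBAxB6-TGFbeta replicate 6 and B6-TGFbeta replicate 2, the 2 arrays with high liver or fat markers, and the difference was 0.87 (SE 0.27, adjusted p 0.0878 in limma). Leaving out these 2 arrays removes that overlap by construction and leaves 2 arrays a group. In that fit Hk2 passed as higher (1.41, SE 0.12, adjusted p 0.00283), as did Pfkfb1 (0.60, SE 0.12, adjusted p 0.0439), which encodes an enzyme that sets fructose-2,6-bisphosphate. Hk2 passed in 4 of 22 alternatives. It passed in none of the fits with 1 array left out before the gene summary (adjusted p 0.138 to 0.604 in limma).

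Of 7 genes of fructose and polyol metabolism besides Khk, 5 passed as lower (3 with the 2 arrays left out, 1 to 2 with 1 array left out), leaving 2, and the median was -0.69. They included Sord (-1.44, SE 0.094), which makes fructose from sorbitol, the glycerol kinase gene Gyk (-1.21, SE 0.14), the glycerol phosphate dehydrogenase gene Gpd1 (-1.21, SE 0.22) and Dak (-0.69, SE 0.11), whose enzyme phosphorylates the glyceraldehyde of fructose breakdown. Sord passed under all 22 alternatives. Of 16 other transporters of glucose and related sugars, 4 passed as lower (3 with the 2 arrays left out, 0 to 2 with 1 array left out), leaving 12, and the median was -0.13. The 4 were the fructose carrier Slc2a5 (-0.95, SE 0.097), Slc5a9 (-0.77, SE 0.11), Slc5a10 (-0.84, SE 0.18) and Slc5a4a (-0.58, SE 0.10).

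Of 19 genes that supply gluconeogenic precursors, 6 passed as lower (8 with the 2 arrays left out, 0 to 3 with 1 array left out), leaving 13, and the median was -0.35. Examples were the dicarboxylate carrier Slc13a3 (-1.86, SE 0.16), the pyruvate dehydrogenase kinase Pdk2 (-1.07, SE 0.10), the glutamine carrier Slc38a3 (-0.99, SE 0.12) and the mitochondrial dicarboxylate carrier Slc25a10 (-0.86, SE 0.16). Of 18 transcriptional and hormonal regulators, 7 passed as lower (5 with the 2 arrays left out, 0 to 3 with 1 array left out), leaving 11, and the median was -0.30. Among the 7 were the parathyroid hormone receptor Pth1r (-0.87, SE 0.11), whose ligand raises renal gluconeogenesis, the insulin receptor substrate Irs1 (-0.74, SE 0.099), the nuclear receptor Hnf4a (-0.89, SE 0.14) and the sugar-responsive factor Mlxipl (-0.64, SE 0.11). On the brightest row of each gene alone, Hnf4a stood at -0.38 and did not pass. At an unadjusted p under 0.05 in limma, 7 of 7 fructose genes and 7 of 16 transporters were lower. So were 14 of 19 precursor genes and 10 of 18 regulators. No gene of the fructose, transporter, precursor or regulator lists passed as higher, and 1 regulator was higher at that unadjusted threshold. It was the transcription factor gene Cebpb (0.43), which passed as higher with the 2 arrays left out (0.61, SE 0.13, adjusted p 0.0444).

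Markers of the proximal tubule moved with the members. Of 16 markers without segment preference 13 passed as lower, where 4.57% of all genes did, with a median of -0.81, and their mean value was 9.57 to 9.81 in the CBAxB6-TGFbeta kidneys and 10.55 to 10.75 in the B6-TGFbeta kidneys. The largest fall among the named ones was in Miox (-2.57, SE 0.25), an inositol-degrading oxygenase, and the phosphate carrier Slc34a1 (-1.88, SE 0.13), the sodium-proton exchanger Slc9a3 (-1.07, SE 0.10) and Slc22a18 (-1.05, SE 0.12) were also lower. Of 9 markers of segments S1 and S2, 8 passed as lower, with a median of -1.16. They included the amino acid carriers Slc7a8 (-1.31, SE 0.094) and Slc6a19 (-1.56, SE 0.18), the anion carrier Slc22a6 (-1.16, SE 0.15) and the phosphate carrier Slc34a3 (-0.95, SE 0.13), which on its brightest row stood at 0.12. Of 9 markers of S3, the carriers Slc6a18 (-0.85, SE 0.13), Slc22a13 (-0.76, SE 0.13), Slc27a2 (-0.59, SE 0.14) and Slc16a9 (-0.39, SE 0.092) passed as lower, leaving 5, and the median was -0.39. Of these 5, Slc7a13 (-2.23, SE 0.67, adjusted p 0.0828) ranged from 6.73 to 10.13 within CBAxB6-TGFbeta and stood at 10.73 to 11.12 in B6-TGFbeta. With the 2 arrays left out, 12 unspecific, 8 S1 and S2 and 3 S3 markers passed as lower, against 2.66% of all genes. With 1 array left out in turn, 1 to 8, 1 to 7 and 0 to 1 did, in the same order. In these fits 0.176% to 1.64% of all genes passed as lower. Without moderation of the variances 0, 1 and 0 markers passed as lower, against 0.196% of all genes. The medians of Slc5a2's segments and of Slc5a1's segment were not tested against each other, and the share of the 9 genes' differences that follows proximal tubule content was not tested.

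Markers of liver, fat and red cells are given for the same arrays. The mean over 13 hepatocyte genes was 6.53 to 7.50 in CBAxB6-TGFbeta and 6.46 to 7.21 in B6-TGFbeta, with 1 gene lower, Apob (-1.12, SE 0.23), which the kidney also expresses. Over 15 fat genes it was 6.63 to 7.02 in CBAxB6-TGFbeta and 6.66 to 8.27 in B6-TGFbeta, the highest value being that of replicate 2, and 1 gene passed as lower, Ppara (-0.72, SE 0.13), which proximal tubule cells also use. Over 5 red cell genes it was 6.54 to 6.95 in CBAxB6-TGFbeta and 6.44 to 6.77 in B6-TGFbeta. None of these passed in limma with all arrays. At an unadjusted p under 0.05, 1 was lower, Slc4a1 (-0.73, SE 0.21), and 2 were higher, Hbb-b1 (0.94, SE 0.27) and Epb4.2 (0.32, SE 0.099). On the brightest row, and with the 2 arrays left out, Slc4a1 passed as lower. Its difference was -1.38 to -0.24 over the alternatives, while those of Hbb-b1, Alas2, Epb4.2 and Klf1 stayed above 0. With 1 array left out after the gene summary, at most 1 passed as higher. Hbb-b1, a globin chain, stood at 7.16 to 7.80 in CBAxB6-TGFbeta and 6.06 to 7.21 in B6-TGFbeta, and Alas2, of haem synthesis in red cells, at 7.51 ± 0.20 in CBAxB6-TGFbeta and 7.33 ± 0.29 in B6-TGFbeta (SD, n = 3 each). Their part in the members' differences was not tested beyond leaving out the 2 arrays.

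**Figure D4:**
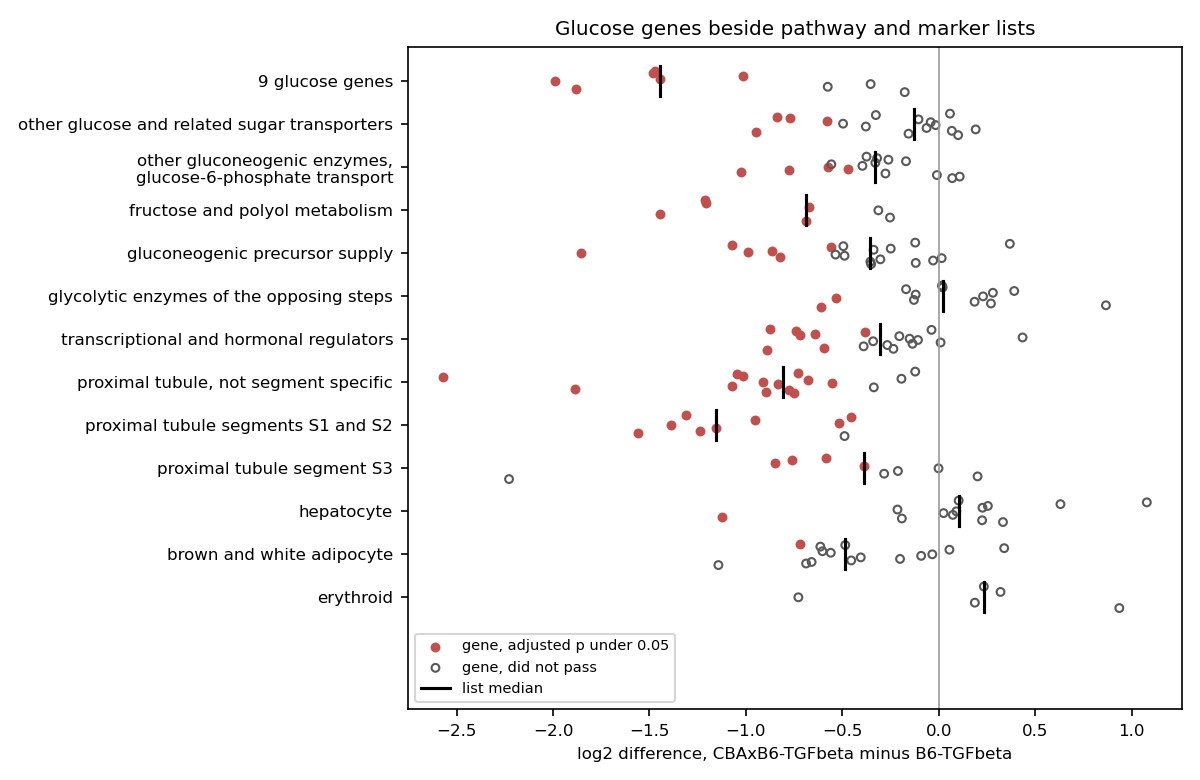
Log2 difference (CBAxB6-TGFbeta minus B6-TGFbeta) of the 9 glucose genes and of each measured gene of the 12 lists, filled where the adjusted p was under 0.05, with the list median as a bar. The median of the 9 genes lies at -1.45, that of the S1 and S2 markers at -1.16 and those of the glycolytic, liver and red cell lists above 0.

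Genes whose profile over the 6 arrays lay closest to a member were found by the root mean square distance between values centred on each gene's mean, among genes with at least 3 rows. They share the arrays and their group split, so the list is a description. Closest to Slc5a2 were S100g (distance 0.17), which encodes the calcium-binding protein calbindin-D9k, the brush border protease gene Mep1b (0.18), Slc34a1 (0.19) and Slc13a3 (0.21). S100g stood at 9.61, 10.24 and 9.99 in CBAxB6-TGFbeta replicates 4, 5 and 6, against 11.65, 11.53 and 11.67 in B6-TGFbeta, the same order of kidneys as Slc5a2 in both groups. Closest to Pck1 were Ugt3a1 (0.12), the bile acid carrier gene Slc10a1 (0.18), Hao2 (0.21), a peroxisomal oxidase gene, and Abca13 (0.22). Ugt3a1 stood at 6.35, 6.38 and 7.38 in CBAxB6-TGFbeta replicates 4, 5 and 6, against 8.73, 8.53 and 8.53 in B6-TGFbeta, with replicate 6 again the highest of its group. Closest to Slc2a1 were Dhdpsl (0.13), Pgpep1 (0.13), Gpr21 (0.14) and Atp5g2 (0.14), whose differences ran from -0.68 to -0.53. Of these only Dhdpsl passed (adjusted p 0.0495 in limma).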

How the data were processed

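The deposited table holds log2 intensities of exon probe sets, 1 column per array. The submitters' processing notes name Partek and RMA but no version, and the sources used here give no background correction, normalization setting or genome build. Rows with 1 symbol in the platform annotation were combined by Tukey's median polish (at most 10 iterations) into 20416 gene values. Groups were compared with limma 3.58.1 in R 4.3.3 (1 group term, moderated variances, two-sided, Benjamini-Hochberg over all genes, threshold 0.05), and all 241576 rows were tested in the same way. Pairs of genes were compared by exact permutation over arrays. The calculations were tested on simulated data. Precision is limited by the 3 arrays per group.

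The 9 genes and the lists were chosen with earlier results of these data known. Named are all 9 genes, up to 4 passing genes per list with the smallest p, set isoenzymes and defining markers, and the 4 nearest genes of Slc5a2, Pck1 and Slc2a1. Slc7a13, Hk2, Pfkfb1, Cebpb, Slc4a1 and Epb4.2 were named after their values were seen. Symbols are those of the annotation (Dak and Gyk are older names of Tkfc and Gk). Alternatives covered normalization, gene summary, dim rows and genes, variance model and arrays left out.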

Additional observations from a re-analysis of the deposited data

How the results depend on the processing

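All 9 differences stayed below 0 under the 22 alternatives run. The number of the 9 genes that passed as lower was 6 as reported, 1 (Khk) without moderation, and 1 to 6 with an array left out, 6 being reached in each fit that kept the gene values of all 6 arrays. Over all genes, 1562 passed as reported, 617 on the brightest row of each gene, 2243 with array weights, 63 without moderation and 57 to 554 with an array left out before the gene summary, and why the count depends on the step at which an array is left out was not tested. Of the 109 rows, 35 passed as lower as reported, where 0.299% of all rows did. With trended and robust moderation 53 did, with an array left out 0 to 8, and with 2 arrays left out 0. In the fits with arrays left out, 66 to 72 were lower at an unadjusted p under 0.05, against 5.43% to 8.15% of all rows. The share of all rows that passed after adjustment was not taken for these alternatives. The Khk minus Pcx difference of differences turned to -0.0696 on the mean of rows, the Slc2a2 minus Slc2a1 difference of differences to -0.18 on the brightest row and -0.0121 without the dimmer 50% of rows, and Slc34a3 to 0.12 on its brightest row. The cause was not tested. On the brightest row, 282 of all genes, or 1.38%, passed as lower. In that fit, 1 of the other sugar transporters, 1 of the other gluconeogenic genes, 2 fructose genes, 5 precursor genes, 1 regulator and 8, 2 and 1 of the unspecific, S1 and S2, and S3 markers passed as lower. So did Slc4a1 of the red cell list. Without moderation, 1 gene each of the sugar transporter, fructose, precursor and S1 and S2 lists passed as lower and none of the other 8 lists. Over all genes 0.196% did. No paired analysis was possible because the groups share no replicate numbers.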
